A study of Mus musculus with 2 samples.

Results

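The mouse gonadal fat pad is the white fat depot that lies beside the gonads. The contigs described here are long stretches of strand-specific read coverage in its polyadenylated RNA. They were chosen by 2 values of the deposited contig table on mouse build mm9, a length of 5000 bp or more and an IDR of 0.01 or less. The IDR, or irreproducible discovery rate, is a fraction near 0 for features that replicates place at like ranks. Of 880859 contigs, 2427 met both limits, which is 0.276%. They are compared with the 253593 contigs of any length that met the IDR limit. The study holds 1 group of 2 libraries, labelled biological replicates 1 and 2, from fat pads of 8-week-old C57BL/6J mice of both sexes pooled, with no treatment named. Both libraries carry 1 donor identifier, so how many mice stand behind each is unknown, and the spread between them may be technical. The contig and junction tables were made over both libraries together, and the gene tables were made for each library. No condition was compared, so every difference below is a description without a test.

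How the contigs were called is not given, including whether short gaps in coverage were bridged. A contig is taken here as built from the reads alone, without gene models. A spliced messenger RNA should then give 1 contig for each exon. Introns are removed while the RNA is made. A contig that runs across an intron should hold reads from that intron, from an overlapping unspliced transcript or from an exon of another isoform. A contig can also be long because the exon itself is long, as in the last exons that hold the 3′ untranslated regions of many genes. White fat cells make and store triglyceride, and the enzymes of fatty acid synthesis and the coat proteins of the lipid droplet are among their most abundant messages. The epididymis is the coiled duct where sperm ripen. It lies against the gonadal fat pad of males and secretes lipocalins, defensin-like proteins and protease inhibitors.

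Genes were given to contigs without moving any coordinate between builds, by the lengths of 2 neighbouring introns and of the exon between them. The exon is the centre of each such match, so the exons below are shown for genes of the contigs of highest level or with the most junctions, 1 short coding exon for each gene. Each lay between introns that both fell inside a long contig. Letters run 5′ to 3′ on the strand of the gene, and the capitals mark the last 3 bases before the splice donor.
Gpx5: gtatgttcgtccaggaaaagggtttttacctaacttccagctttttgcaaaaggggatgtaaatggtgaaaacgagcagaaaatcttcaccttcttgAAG
Eef2: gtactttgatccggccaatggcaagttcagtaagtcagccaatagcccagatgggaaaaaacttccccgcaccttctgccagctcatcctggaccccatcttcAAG
Scd1: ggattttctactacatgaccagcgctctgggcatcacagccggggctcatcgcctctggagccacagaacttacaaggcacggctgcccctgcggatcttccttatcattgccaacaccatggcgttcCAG
Car3: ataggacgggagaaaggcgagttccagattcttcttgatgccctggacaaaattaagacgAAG
Lcn5: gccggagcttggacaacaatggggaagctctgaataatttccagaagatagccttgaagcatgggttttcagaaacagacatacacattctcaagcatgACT
Lcn8: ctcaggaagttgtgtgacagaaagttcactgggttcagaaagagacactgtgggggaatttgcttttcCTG
Slc38a5: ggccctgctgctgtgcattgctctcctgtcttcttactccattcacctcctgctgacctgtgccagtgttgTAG
Fasn: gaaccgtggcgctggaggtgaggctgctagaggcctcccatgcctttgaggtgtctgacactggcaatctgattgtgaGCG
The sequences are from GENCODE M21 transcripts, whose positions are on mm10, a later build than that of the contigs. The Gpx5 exon is chr13:21288704-21288803 on the minus strand, with introns of 412 bp before and 1131 bp after it. Eef2 is shown by chr10:81179346-81179451 on the plus strand, between introns of 86 and 92 bp. For Scd1 the exon is chr19:44403165-44403295 on the minus strand, between introns of 3191 and 1266 bp. Car3 has the shortest exon shown, chr3:14869235-14869297 on the plus strand, with 793 and 744 bp of intron on its sides. The Lcn5 exon, chr2:25660895-25660996, and the Lcn8 exon, chr2:25654745-25654815, lie on the plus strand and were matched in 1 and the same contig. Slc38a5 gave chrX:8272875-8272948 on the plus strand, and Fasn gave chr11:120815882-120815962 on the minus strand between introns of 77 and 91 bp. Of the 16 introns beside these 8 exons, 13 were under 1000 bp.

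Exons with both introns in a long contig had shorter introns around them than exons outside contigs, and so did the other exons with an intron in a contig. A short intron fits inside a contig more easily, so this order follows in part from how the groups were formed. Among 6093 such exons of 1213 genes, the median intron was 311 bp before the exon and 284 bp after it. Among 76654 matched exons of 11223 genes whose introns both lay in no contig, the medians were 1926 and 1776 bp. The remaining 34859 matched exons, with at least 1 intron in a contig of any length, lay near the first group, with median introns of 412 and 370 bp. The exons themselves were alike in length, with medians of 122, 125 and 122 bp. Their median GC content was 55.9% (quartiles 51.8 and 59.5%) in the long contigs and 50.0% (quartiles 44.8 and 55.2%) outside contigs, and 54.8% in the remaining exons. The last bases were AG in 53.4% of exons in the long contigs in 56.9% of those outside and in 54.1% of the remaining ones. GC content and last bases were not compared at like intron lengths. Exons of 1 gene share their surroundings, so these are not independent points.

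The long contigs had a median length of 6214 bp, with quartiles of 5469 and 7504 bp, and 170 reached 10000 bp. Together they covered 16571218 bp, 5.26% of the length of all contigs, and held 27.0% of the product of RPKM and length. RPKM is reads per kilobase of contig, scaled to the number of reads in the libraries, the only level the contig table gives, and its spread between libraries is unknown. The median RPKM was 5.70, with quartiles of 2.80 and 11.2. A total of 42 contigs reached 100 RPKM and 100 lay under 1 RPKM. The plus strand held 1210 and the minus strand 1217. All 2427 had an IDR of exactly 0, so the IDR limit removed only 1 contig of the required length, a plus-strand stretch of 6088 bp at chr5:35376204-35382291 with an IDR of 0.07 and 0.733 RPKM. At the length limit, chr12:14153953-14158952 and chr4:62794941-62799940 were just inside with 5000 bp and Ndst2 with 5001 bp. Just outside were a contig of 4999 bp at chr9:98303807-98308805 and 2 of 4997 bp at chr15:99235483-99240479 and chr4:148935549-148940545. The contigs beside the limit ran from 1.24 to 125 RPKM. Over the whole class of 2000 to 5000 bp the median was 2.40 RPKM, with quartiles of 0.974 and 6.02, and it was 0.719 RPKM from 1000 to 2000 bp.

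The longest contig, 24275 bp on the minus strand at chr2:164413012-164437286, ran through Eppin and Wfdc8, genes of protease inhibitors of the male reproductive tract. It held 10 introns at 28.3 RPKM. The next was chr16:43621112-43642722 on the plus strand, 21611 bp long at 8.00 RPKM, which no reproducible junction touched and which received no gene name. Fasn, the fatty acid synthase, followed with 19493 bp at 260 RPKM. Tbc1d8, a Rab GTPase-activating protein gene, gave 18427 bp at 10.1 RPKM, with 82.6% of the contig in introns. An unnamed contig at chr9:70792606-70810244 was 17639 bp long, and the kinesin light chain gene Klc1 gave 17396 bp. Klf15, a transcription factor gene active in fat and liver, gave 17292 bp at 8.48 RPKM. The 10 longest ran from 5.73 to 260 RPKM, all above the median of the long contigs.

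**Figure D1:**
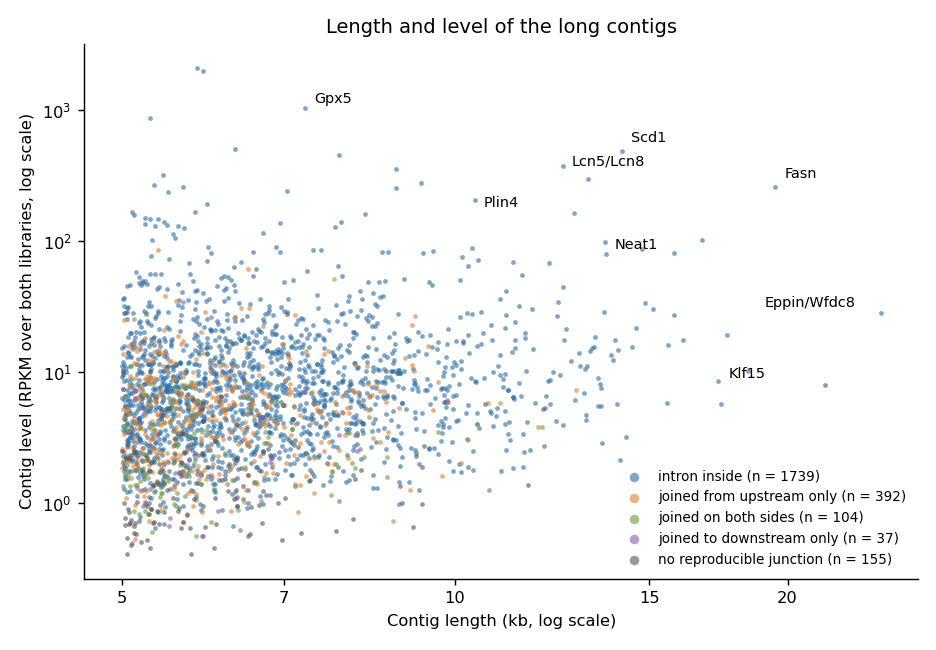
Length (x axis, kb, log scale) and level (y axis, RPKM over both libraries, log scale) of the 2427 long contigs, 1 point each, coloured by how reproducible junctions touch them. Of all points 1644 lie under 7 kb and 1638 between 1 and 10 RPKM, the contigs that no junction touches lie low, and Fasn and Scd1 combine great length with a high level.

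The highest level, 2090 RPKM, belonged to chrM:1094-6938 on the mitochondrial genome, where 1 contig of 5845 bp was a member. It was followed by chr17:39979927-39985839 on the plus strand with 2010 RPKM over 5913 bp. Neither received a gene name from the junctions. Among named contigs Gpx5, an epididymal glutathione peroxidase, was highest with 1040 RPKM over 7316 bp at chr13:21378071-21385386. Clu, which encodes the secreted chaperone clusterin, had 867 RPKM over 5295 bp, and Eef2, the translation elongation factor that moves the ribosome along, had 501 RPKM over 6322 bp. Scd1, the desaturase that makes oleic acid, had 489 RPKM over 14170 bp at chr19:44468201-44482370. Car3, a carbonic anhydrase abundant in fat cells, had 451 RPKM, and the epididymal lipocalins Lcn5 and Lcn8 shared a contig of 376 RPKM. Slc38a5, an amino acid transporter, had 357 RPKM and Itm2b, a gene of a small membrane protein, 320 RPKM. Named contigs had a median of 6.30 RPKM and the 316 unnamed ones 2.13 RPKM.

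Most long contigs held at least 1 whole intron, as counted from junctions. A reproducible junction, one with an IDR of 0.1 or less, lay with both ends inside on the same strand in 1739 of 2427, or 71.7%. Among all contigs of the IDR limit the share was 6.34%, and by length it was 0.716% under 500 bp, 3.51% from 500 to 1000 bp, 13.2% from 1000 to 2000 bp and 38.3% from 2000 to 5000 bp, lower bounds included. A longer contig has more room for an intron, so the order of these shares follows in part from the length limit itself. Per base, introns took up 37.7% of the length of the long contigs and 17.3% of that of the 2000 to 5000 bp class. The long contigs held 7715 introns that did not overlap each other, with a median of 3 in contigs that held any. There were 409 contigs with exactly 1 and 174 with 10 or more. Any reproducible junction inside could count as an intron, and whether each is a spliced intron was not tested. The mitochondrial contig, at 2090 RPKM, counted 6, of which the most-read had 292 reads. The Itm2b contig at 320 RPKM was 77.5% intron by 1 junction of 31 reads. In the contigs with an intron a median of 54.0% of the length was intron, with quartiles of 30.5 and 69.6%, and 946 contigs were more than 50% intron.

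**Figure D2:**
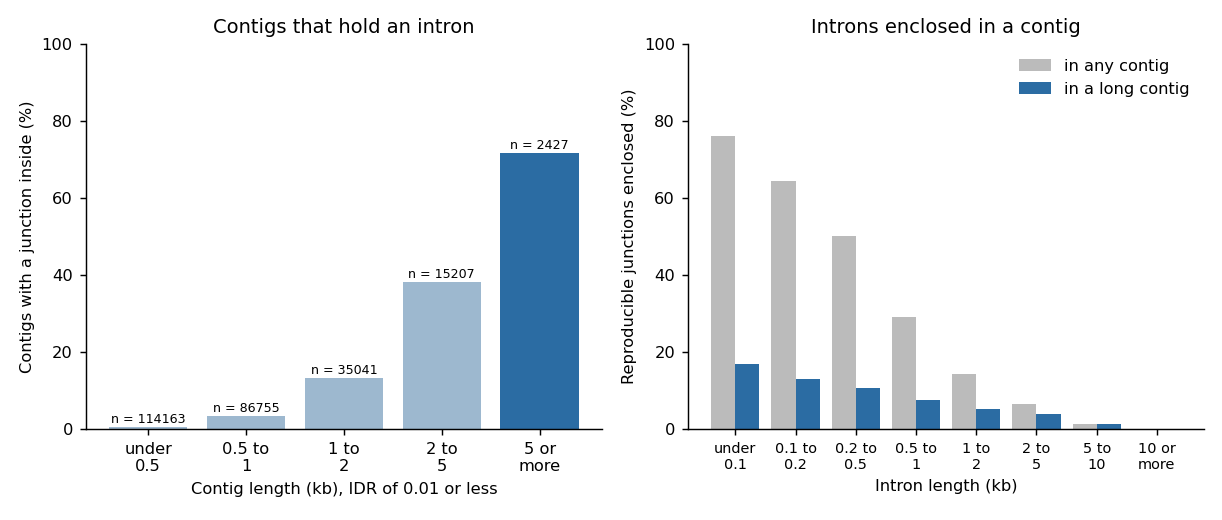
Left, share of contigs with a junction inside (y axis, percent) by contig length (x axis, kb), with the number of contigs above each bar. Right, share of reproducible junctions enclosed in any contig (grey) or in a long contig (blue) by intron length (x axis, kb). The share of contigs rises to 71.7% in the longest class, and the share of introns enclosed falls from 76.0% under 0.1 kb to 0.0648% at 10 kb or more.

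Seen from the introns, few were enclosed and short ones were enclosed most. Of 164045 reproducible junctions, 25.2% lay inside some contig and 6.62% inside a long one. The share in any contig fell from 76.0% of introns under 100 bp to 50.3% at 200 to 500 bp, 14.4% at 1000 to 2000 bp, 1.45% at 5000 to 10000 bp and 0.0648% at 10000 bp or more. An intron cannot be enclosed in a contig shorter than itself. The median intron inside the long contigs was 432 bp and had 167.5 reads across its junction, and the median of the other introns was 1408 bp with 51 reads. Long introns were still found: 98 contigs held one of 5000 bp or more. The longest was 12638 bp in Ttyh3, a chloride channel gene, inside a contig of 13583 bp at 2.86 RPKM. In Dgat2, the enzyme of the last step of triglyceride synthesis, 80.9% of a contig of 14783 bp at 86.2 RPKM was intron.

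The Fasn contig, chr11:120666652-120686144 on the minus strand, held more introns than any other, 45 from 62 junctions with 328471 reads. It was 1.04 times as long as the annotated gene. Of the 45, 36 had at least 10% of the reads of the most-read junction in the contig, and these covered 35.0% of it. Scd1 held 11 introns, of which 5 passed that share and covered 59.4% of the contig. Its most-read intron, of 2023 bp, had 76170 reads and its longest, of 3191 bp, had 25011. Plin4, a perilipin of the lipid droplet, held 16 introns from 62 junctions, and 7 passed the share. Several of the others were exactly 99 bp long with 7 to 48 reads each, and whether these are spliced introns was not tested. Eef2 held 16, of which 13 passed. The contig of Slc38a5 held 16 and 14 passed, covering 77.4% of its length. The introns below that share had 8 to 72 reads each in Scd1 and 7 to 189 reads each in Plin4, so they added to the number of introns and held few of the reads.

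**Figure D3:**
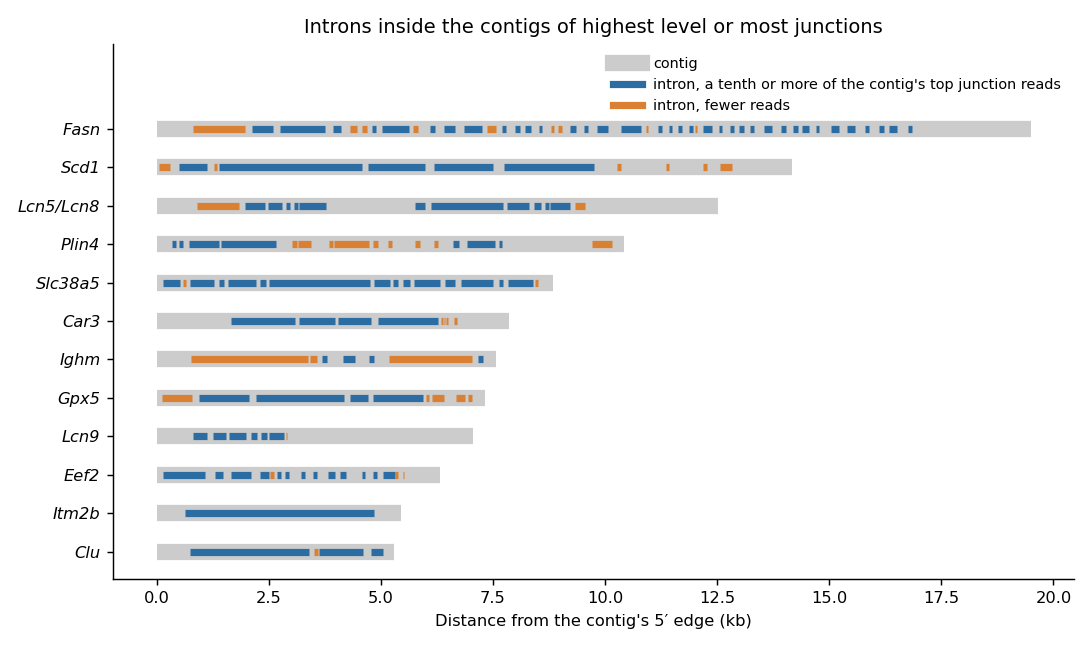
Introns along the gene-named contigs of highest level or with the most junctions, drawn from the 5′ edge of each contig (x axis, kb, rows sorted by contig length). Blue introns have at least 10% of the reads of the most-read junction of their contig and orange ones have fewer. Fasn shows 45 introns along 19493 bp, Lcn5 and Lcn8 share a row, and 3 of the 7 introns drawn for Ighm are orange, among them its longest.

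Ighm, the constant region of the immunoglobulin M heavy chain of B cells, had the most junctions of all long contigs, 104, from 26458 reads. Only 4 of its 7 non-overlapping introns passed the 10% share, and these took 8.13% of the contig against 69.2% for all 7. Its contig began 3378 bp before the first exon that GENCODE annotates upstream of the matched intron. Lcn9, a further epididymal lipocalin, held 7 introns in the first stretch of a contig of 7046 bp. The contig was 2.95 times as long as the gene and reached 3951 bp past its annotated end.

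The other 688 long contigs held no reproducible junction. Of these, 392 were joined by a junction from upstream only, as a last exon is. A further 104 were joined on both sides, 37 to downstream only, and 155 were touched by none. The median level was 7.0 RPKM with an intron inside, 4.86 RPKM when joined from upstream only, 2.00 RPKM when joined on both sides, 2.04 RPKM when joined to downstream only and 1.54 RPKM when untouched. Of the 10 contigs of lowest level, from 0.402 to 0.528 RPKM, 8 were untouched. The lowest was chr10:42246823-42251876 on the plus strand, with 0.402 RPKM over 5054 bp.

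Among contigs joined from upstream only, 307 matched the last intron of a gene, and their annotated last exon had a median of 4956 bp. It was 5000 bp or longer in 145 and shorter in 162. Scd2, the second stearoyl-CoA desaturase, was highest at 85.1 RPKM with a contig of 5385 bp. It ended 84 bp past the annotated end of a last exon of 3864 bp. Cyb5b, an outer mitochondrial membrane cytochrome, followed with 61.4 RPKM over 6499 bp. Its contig ended within 1 bp of the annotated end of a last exon of 3894 bp. The contigs of Scd2 and Cyb5b thus also covered sequence before the annotated last exon. The fatty acid elongase Elovl6, at 28.5 RPKM, ended 81 bp past the end of a last exon of 5436 bp. Others fell short or went past: the calcium pump gene Atp2b4 stopped at -2479 bp relative to the annotated end, and Mlec, which encodes the lectin malectin of the endoplasmic reticulum, ran 1634 bp beyond it. The median distance was 0 bp, 130 contigs ended within 100 bp, and 73 ran more than 1000 bp beyond.

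Contig edges seldom coincided with splice sites. A junction end lay within 5 bp of an edge in 170 long contigs, or 7.0%, at the 5′ edge in 125 and at the 3′ edge in 48. In contigs under 500 bp the share was 37.7%. It was 6.67% from 500 to 1000 bp, 7.93% from 1000 to 2000 bp and 9.52% from 2000 to 5000 bp. The low share was therefore not particular to the long contigs. Distances to annotated gene ends were measured for the contigs that matched a first or last intron. For 1274 contigs that matched a last intron, the 3′ edge lay a median of 17 bp past the end of the longest last exon annotated after that intron (quartiles -4 and 635 bp). The edge was within 5 bp in 295. In 607 it was within 100 bp, in 501 it lay more than 100 bp past and in 166 more than 100 bp short of it. For the 343 that matched a first intron, the 5′ edge lay a median of 184 bp before the annotated start. It was within 100 bp in 126, more than 100 bp before it in 210 and more than 100 bp after it in 7. The distances are differences of lengths measured from the matched intron, and an annotated end that belongs to another intron of the gene is not considered.

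**Figure D4:**
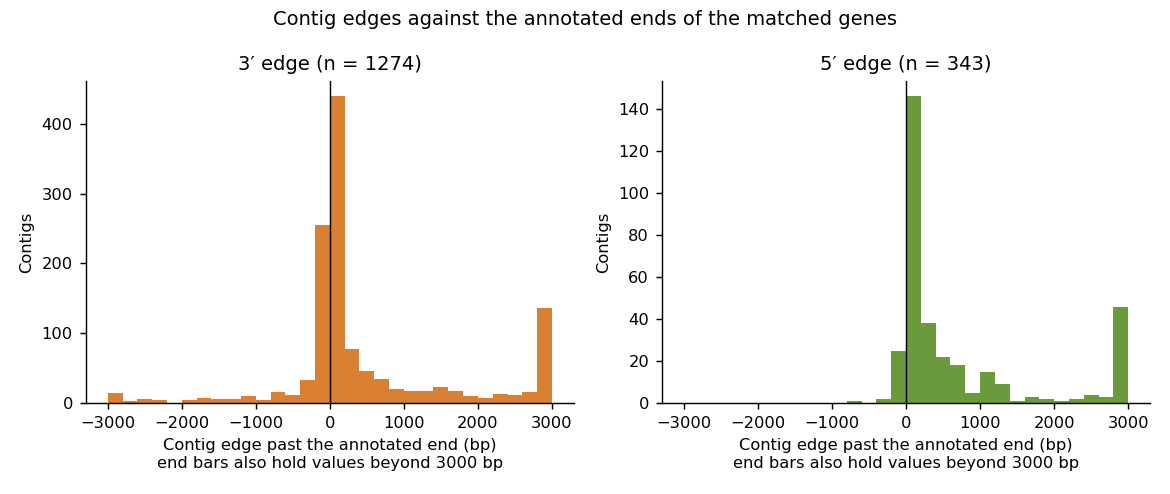
Distance in bp from the annotated end of the matched gene to the contig edge (x axis, positive values past the end), as numbers of contigs (y axis), for 1274 3′ edges and 343 5′ edges. The bars peak at 0, more contigs run past the ends than stop short, and 271 of the 3′ edges and 86 of the 5′ edges lie more than 1000 bp beyond.

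The farthest 3′ extension was that of Neat1, a nuclear long non-coding RNA that builds paraspeckles. Its contig of 13701 bp at chr19:5832821-5846521, at 79.3 RPKM, reached 10860 bp past a last exon of 754 bp, but was only 0.660 times as long as the annotated gene, whose unspliced isoform is longer. For Slc25a10, the mitochondrial dicarboxylate carrier, a contig of 14850 bp at 33.4 RPKM was 2.02 times as long as the gene and ran 7136 bp past its end. Rrbp1, a ribosome-binding protein gene, gave a contig at 1.61 RPKM that ran 8368 bp past a last exon of 317 bp. Lpl, the lipoprotein lipase, was named by a contig of only 1.18 RPKM that reached 6995 bp past a last exon of 216 bp, while the gene measured 1590 and 1863 TPM (transcript abundance scaled for length and depth, the level in the gene tables, replicate 1 first). A gene name therefore says which junctions touch a contig and not that the contig carries most of the gene's RNA.

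The match by lengths named 2111 long contigs, 2067 of them by 1 gene, against 42.9% of all contigs of the IDR limit that received a name. Looked up on the opposite strand, the same lengths named 1 contig, and on the next chromosome 0. Of the 2067 with 1 gene, 2034 were protein-coding by annotation. The contig's length was a median of 0.247 of the gene's span. It was 0.9 of the span or more in 187, of which 186 held an intron, and above the span in 143. This ratio compares lengths only, and a contig shifted past 1 end can leave out part of the gene. In 129 of the 187 a first and a last intron were both matched and the edges lay within 100 bp of the annotated ends or past them. These included Fabp4, which carries fatty acids within fat cells, with 266 RPKM and 3 introns over 5345 bp. Others were the glutamine synthetase Glul with 163 RPKM over 12819 bp, the class I histocompatibility gene H2-D1 with 158 RPKM, the chaperones Hsp90ab1 with 113 RPKM and Hspa5 with 89.6 RPKM, the respiratory chain subunit Cox4i1 with 80.3 RPKM and the ribosomal protein gene Rpl4 with 76.9 RPKM. The edges of Rpl4 lay at -6 bp at the 3′ end and 23 bp before the start, and those of Cox4i1 at 2 and 27 bp. The Gpx5 contig also belonged to these, with edges 786 bp before the start and 227 bp past the end.

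There were 44 contigs named by 2 or more genes, 38 of them by protein-coding genes only. These are annotated gene entries, which can overlap, and 1 contig was named by 2 entries both called Aldoa. How many of the 44 contigs run through separate genes was not tested. One of 16747 bp at chr7:148640983-148657729, at 101 RPKM, ran through Pnpla2, the lipase that begins triglyceride breakdown, and its neighbours Cd151, a tetraspanin gene, and Cracr2b. It held 27 introns in all. Pnpla2 measured 948 and 816 TPM, Cd151 505 and 627 TPM and Cracr2b 42.0 and 32.8 TPM in replicates 1 and 2. The contig of Lcn5 and Lcn8, 12523 bp at chr2:25507852-25520374, held 13 introns with 203349 junction reads and a stretch of 1995 bp between the introns of the 2 groups. Cd81 and Tssc4 shared 15783 bp at 27.4 RPKM, and the deubiquitinase gene Usp19 and the laminin gene Lamb2 shared 13648 bp at 28.5 RPKM with 35 introns. In each of these the genes lie on 1 strand, as a contig is strand-specific.

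Conversely, 163 genes gave 2 or more long contigs. Tns1, a tensin of focal adhesions, gave 4 with 27292 bp in all, and Pax8, a transcription factor of the epididymal epithelium, 3 with 18214 bp. Among contigs named by 1 gene alone, 154 genes gave 164 neighbouring pairs, whose median gap was 2389 bp, and 33 gaps were 100 bp or less. The pieces of the glutamine transporter gene Slc1a5 were 54 bp apart at 48.4 and 64.4 RPKM. Those of Flna, the actin crosslinker filamin A, were 204 bp apart at 98.5 and 53.9 RPKM, and those of Clu 890 bp apart at 192 and 867 RPKM. With contigs of 1 strand joined across gaps of 100 bp or less, 2862 in place of 2427 met the limits.

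An opposite-strand contig of any IDR overlapped 1428 long contigs, or 58.8%, against 16.9% of all contigs of the IDR limit. By length the share was 12.2% under 500 bp, 15.3% from 500 to 1000 bp, 24.2% from 1000 to 2000 bp and 38.1% from 2000 to 5000 bp. A longer contig has more room for an overlap, so this order follows in part from the length. The overlap covered at least 50% of the contig in only 85, or 3.50%, below the 8.49% of contigs under 500 bp. Averaged over the contig, the opposite-strand RPKM was a median of 0.00334 of the contig's own in the overlapped contigs. Among 24 overlapped contigs of 100 RPKM or more the median was 6.09e-05, and the highest ratio was 0.0191. Only 35 long contigs lay below their opposite strand, with a median of 2.50 RPKM, and in 31 of them a gene was named there. The minus-strand contig chr2:157381788-157392605, at 9.91 RPKM, lay opposite Nnat, an imprinted gene of a small membrane proteolipid, whose strand averaged 58.8 RPKM over it. The minus-strand contig chr12:114375415-114385803 at 2.50 RPKM lay opposite Crip1 and Crip2, genes of LIM-domain proteins, at 17.8 RPKM. Opposite chr10:79359064-79364891 at 1.16 RPKM lay Med16, a Mediator subunit gene, at 8.88 RPKM.

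The 1987 genes named by long contigs were abundant, in part by choice, since long stretches of coverage and reproducible junctions both need reads. Of these genes 1977 were in the gene tables, and 1971 reached 1 TPM in both libraries, 13.8% of the 14303 genes that did. Their median was 39.4 TPM in replicate 1 and 35.4 TPM in replicate 2, against 14.2 and 12.7 TPM for the 14303. They held 36.3% and 35.5% of the expected counts (estimated fragments) of genes, which summed to 47106979 and 54129473. The share of genes with a long contig was 3.92% under 10 TPM, 18.99% from 10 to 100 TPM, 31.8% from 100 to 1000 TPM and 26.0% at 1000 TPM or more. Level alone did not order the genes by this share, since 97 of the 131 most abundant named no long contig. A gene with fewer than 2 introns could name none, and 316 long contigs had no name.

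Among genes of 100 to 1000 TPM 31.8% had a long contig, against 13.8% of all expressed genes. Genes of lipid storage and release, with medians of 279 and 460 TPM in replicates 1 and 2, had one in 23 of 28. Besides Fasn (1902 and 3140 TPM in replicates 1 and 2), Scd1 (2079 and 2234 TPM) and Fabp4 (2869 and 2744 TPM), they included Cidec, the lipid droplet fusion protein, whose contig of 8694 bp had 82.2 RPKM. Lipe, the hormone-sensitive lipase, gave 10277 bp at 64.4 RPKM with 7 introns, and Agpat2, an acyltransferase of triglyceride synthesis, 15109 bp at 30.0 RPKM with 6 introns. Epididymal genes, with medians of 648 and 447 TPM, followed with 12 of 26. All 26 were at 1 TPM or more in both libraries with none at 0, and their summed level was 57750 TPM in the first library against 40987 TPM in the other. The lipid list summed to 16833 and 22187 TPM. In a mixed tissue, fewer cells of a type and less RNA per cell cannot be told apart. What the epididymal RNA contributes to the long contigs was not tested.

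Each of the other lists had a lower count of genes with a long contig than these. The WNT, TGF-beta and Notch list had 10 of 25, the giant cytoskeletal and linker proteins 11 of 28, and the chromatin modifiers 9 of 30. Insulin and growth factor signalling had 8 of 24, the extracellular matrix 7 of 26, solute carriers and channels 5 of 25 and the microRNA pathway 5 of 25. Nuclear receptors and coregulators had 4 of 25, endothelial genes 4 of 21, long non-coding RNAs 3 of 15 measured and ubiquitin ligases 2 of 21. A name needed 2 neighbouring introns, so unspliced genes could not be counted even where a long contig covered them. Within these lists the contigs were of both kinds. Ago2, the endonuclease of the microRNA pathway, gave 11279 bp at 6.42 RPKM that ended 48 bp past a last exon of 11173 bp. Celf2, a splicing regulator, gave 6433 bp with no intron at 6.70 RPKM, and Nrip1, a corepressor of nuclear receptors, 7093 bp with no intron at 8.11 RPKM. In contrast Col1a1, the type I collagen chain, held 32 introns in 8459 bp, Piezo1, a mechanosensitive channel, 25 in 9505 bp, and the methyltransferase gene Kmt2b 14 and 10 in its 2 contigs. The lists were chosen with earlier results of these data known, and the counts describe them.

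Few genes of the long contigs were over 2-fold apart between the libraries, and few of all genes were. The IDR limit favours agreement between replicates, but it removed only 1 contig of the required length. The genes of long contigs were also more abundant than most. Closeness may thus follow in part from the choice, which was not tested. Expected counts averaged 20 or more over the libraries in 1976 genes of long contigs. Of these, 11 were over 2-fold higher in replicate 2, or 0.557%, where the share of all 16920 such genes was 1.15%. In replicate 1, 31 were over 2-fold higher, or 1.57%, where the share of all was 1.54%. The ratio was that of TPM + 1, which understates differences of low genes. The median log2 ratio of replicate 2 over replicate 1 was -0.13 for the genes of long contigs and -0.11 for all. With replicate 2 divided by 0.912, which brings the median ratio of expressed genes to 1, the split of 11 and 31 became 15 and 21. Over all such genes 195 and 261 became 250 and 178. The larger count passed to replicate 2 over all genes and stayed, by few genes, with replicate 1 among the genes of long contigs. This contrast was not tested.

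Lep, which encodes the satiety hormone leptin of fat cells, had the largest ratio in favour of replicate 2, with 575 TPM there and 92.1 TPM in replicate 1. Its contig had 148 RPKM over 5299 bp, and the junction table's R1 column, which the labels do not tie to a library, held 9.68% of its junction reads against 46.8% over all long contigs. Other genes over 2-fold higher in replicate 2 were Ighm with 238 and 903 TPM, and Cbs, an enzyme of homocysteine removal, with 16.8 and 57.1 TPM. Mest, an imprinted gene of fat expansion, had 209 and 664 TPM, and the protease inhibitor gene Spink10 had 56.1 and 175 TPM. The values of replicate 2 exceeded those of replicate 1 at least 3.11-fold in all 5 of these genes.

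In the opposite direction BC018473 stood farthest apart, with 155 TPM in replicate 1 and 0.0900 TPM in replicate 2, or expected counts of 8493 and 10. Its contig of 7290 bp at chr11:116613391-116620680 had 16.2 RPKM and an IDR of 0, and 99.9% of its junction reads were in R1. A contig could thus have the lowest IDR although 1 library held nearly all reads of its gene. Ctnnb1, which encodes beta-catenin, had 184 and 49.8 TPM, and its contig had 77.5% of the junction reads in R1. The cytochrome Cyp2e1 had 211 and 57.3 TPM, the mucin gene Muc5b 96.5 and 32.6 TPM, and Syt2, a synaptotagmin gene, 6.63 and 1.17 TPM. Each of these was at least 2.96 times as high in replicate 1, and with 2 libraries none was tested.

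**Figure D5:**
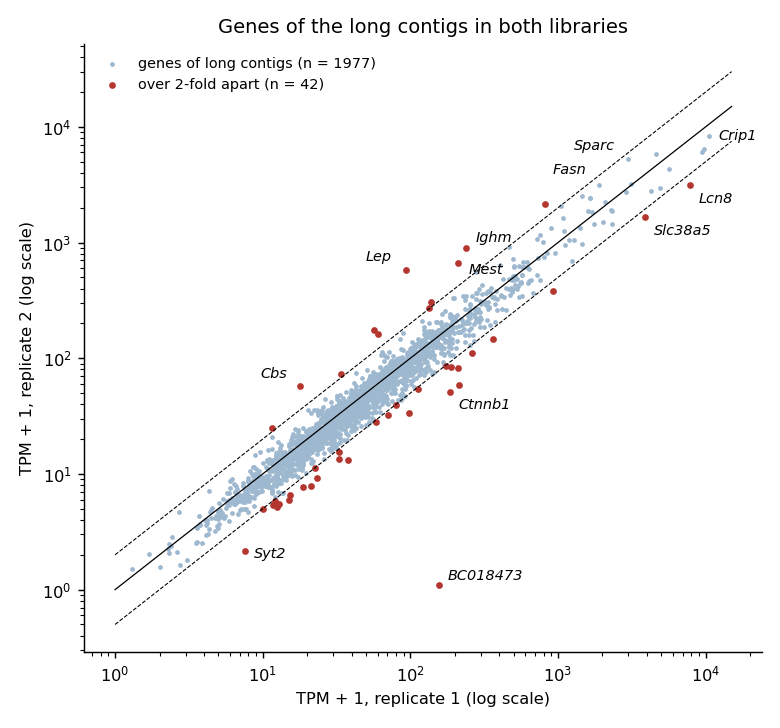
TPM + 1 of the 1977 genes of long contigs in replicate 1 (x axis) and replicate 2 (y axis), both on log scales, with the line of equality and dashed lines at 2-fold. The 42 genes over 2-fold apart are red, with Lep and Ighm above the lines and BC018473 far below them at 155 and 0.0900 TPM.

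Among the 10 genes of highest mean TPM with a long contig, the libraries differed within 2-fold except for Lcn8 with 7811 and 3137 TPM. Slc38a5, below these 10, had 3863 and 1651 TPM. Crip1 had 10518 and 8336 TPM, Clu 9825 and 6380 TPM, Gpx5 9518 and 6082 TPM and Car3 4587 and 5790 TPM. Sparc, a collagen-binding matrix protein gene, had 2991 and 5224 TPM, and Gsn, the actin-severing gelsolin, 3121 and 3196 TPM. Of the epididymal genes with a long contig, 10 of 12 were higher in replicate 1, also after the scaling by 0.912. Before scaling, the median log2 ratio lay below 0 for all genes (-0.11) and for genes of long contigs (-0.13). Other lists also leaned to replicate 1, such as WNT, TGF-beta and Notch with 9 of 10, or 7 after the scaling. Not all did: the extracellular matrix list had 3 of 7, or 2 after it. Of the 23 lipid genes, 12 were higher in replicate 2, or 16 after that scaling. The summed levels of the epididymal and lipid lists moved in the same directions, and their part in single genes was not tested.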

How the data were processed

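The libraries were strand-specific, paired-end and made from polyadenylated RNA, per the labels. The deposited contig table (mm9, made over both libraries together, per the file notes beside it) gives for each contig the authors' RPKM, the IDR as a fraction, and one more score, which in the long contigs is 19.5 to 19.6 times the product of RPKM and length and was not used otherwise. The deposited junction table (mm9) gives the count of reads across each junction, an IDR fraction, and in its names the reads R1 and R2, which sum to that count. The authors' gene tables (mm10, GENCODE M4, per the file notes) give for each library the expected count, TPM and FPKM. Which contig caller, aligner and quantifier were used is not given in the sources used here.

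Contigs were chosen by length and IDR as deposited. The members, the gene lists and the rule for named contigs and genes were chosen with earlier results of these data known. Junctions with an IDR of 0.1 or less were set on the contigs of their strand. Introns are the junctions with both ends inside, taken by reads from the highest so that none overlap. A contig took the name of a gene when 2 neighbouring junctions, of which at least 1 ended in it or within 5 bp of it, had the intron and exon lengths of exactly 1 gene on that chromosome and strand in GENCODE M21. Coordinates were not converted between builds. Gene levels were joined by Ensembl identifier. The rule named the 10 longest, the 10 of highest and the 10 of lowest RPKM, the 3 nearest each side of a limit, the 5 with most junctions and the 5 with the highest opposite-strand ratio. For genes it named the 10 of highest TPM, the 5 largest ratios each way at a mean expected count of 100 or more, and up to 4 per list. Other contigs and genes named in the text were chosen after their values were seen. There was 1 group, so no test was made. The steps were tested on simulated data and run in Python 3.11.15 with pandas 2.3.3 and numpy 2.4.6.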

Additional observations from a re-analysis of the deposited data

How the results depend on the processing

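The number of long contigs was 4407 with a length minimum of 4000 bp and 170 with 10000 bp, and the median RPKM was 9.51 at 10000 bp. The share with a junction end at an edge was 1.44% with no tolerance, 15.6% with 50 bp and 8.78% with all deposited junctions. The share with a junction inside was 90.7% with all deposited junctions and 68.6% with an IDR of 0.01 or less. An opposite-strand contig over at least 50% of the contig was found for 3.50%. The median level of the genes was 37.3 TPM as the mean of both libraries and 30.1 in FPKM, and 35.4 to 39.4 TPM with each replicate alone. Other settings gave 2428 contigs with an IDR limit of 0.1, 2862 when joined across gaps of 100 bp or less, 2007 named with a match of 3 introns, and 36 genes over 2-fold apart in place of 42 with the scaling of replicate 2. For introns, all junctions joined (a median of 56.3% of the contig) and only junctions with at least 10% of the reads of the most-read one (49.1%, 7128 introns) were chosen after seeing the data. For the other moved values the cause was not tested, beyond what the settings themselves change. No paired analysis was possible because there is 1 group and no comparison between groups. The contig table gives no level for each library, so the error of a contig's RPKM is unknown.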

Other observations

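By chromosome, long contigs made up from 0.645% of the contigs of the IDR limit on chromosome 13 to 1.27% on chromosome 15, and 1 of 8 on the mitochondrial genome. Chromosome 2 held the most, 239 contigs with 1691401 bp, and chromosome 18 the fewest among the autosomes, 54 with 346267 bp.

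Of the 316 long contigs with no gene name, 155 were touched by no reproducible junction and 240 lay under 5 RPKM, but 4 reached 100 RPKM. Besides the mitochondrial contig and chr17:39979927-39985839 these were chr14:51627410-51632514 on the plus strand with 167 RPKM and 1 intron of 1200 bp, and chr19:5794881-5802673 on the minus strand with 127 RPKM over 7793 bp and 1 intron with 11 reads. The chr17 contig had 77.1% of its 1978 junction reads in R1, and the mitochondrial one 34.6% of 537. The Gpx5 contig had 122599 junction reads at 1040 RPKM.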
